A study of Mus musculus with 17 samples.

Results

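NRF2, the transcription factor encoded by Nfe2l2, and 9 genes of its core target set (Nqo1, Gclc, Gclm, Srxn1, Txnrd1, Hmox1, Slc7a11, G6pdx and Osgin1) were followed in mouse hepatocytes sorted by FACS. The 10 genes were taken by symbol from a count table of 23461 genes, and all 10 were present and passed the filter on low counts that left 13721 genes to test. The 17 libraries fall into 4 groups: Yap/Taz knockout with CCl4 (n = 3), Yap/Taz knockout untreated (n = 4), wild type with CCl4 (n = 5) and wild type untreated (n = 5). All hepatocytes came from males of 2 to 3 months. Carbon tetrachloride (CCl4), a liver toxicant, was given at 1 ug/g in 7 doses spaced 3 days apart, and cells were collected 3 days after the final dose. How the knockout was made, which promoter drives any recombinase and whether each library is a separate animal were not stated in the labels, so p-values measure only the spread between these libraries.

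NRF2 is held low by KEAP1, which passes it to a CUL3 ubiquitin ligase for degradation. Oxidants and electrophiles modify KEAP1, NRF2 protein accumulates, pairs with small MAF proteins and binds antioxidant response elements in genes for glutathione synthesis, thioredoxin recycling, quinone reduction, heme breakdown and NADPH supply. Because much of this control acts on protein, Nfe2l2 RNA is an incomplete readout of NRF2. In hepatocytes CCl4 is activated to a radical that peroxidises lipids. YAP, encoded by Yap1, and TAZ, encoded by Wwtr1, are the transcriptional co-activators of the Hippo pathway.

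Promoters of 3 genes are shown, chosen with the results known: Srxn1 and Osgin1 share a motif and Nqo1 has none in the window. With CCl4 in the knockout Srxn1 and Nqo1 rose and Osgin1 did not pass the test, as given below. Each runs from 250 bases before to 50 bases after a RefSeq start site on GRCm38.p6, 5′ to 3′ on the gene's strand, and capitals mark matches to TGACNNNGC or TGANTCAGC, which were searched on both strands.
Srxn1, chr2:152105274-152105573 (+): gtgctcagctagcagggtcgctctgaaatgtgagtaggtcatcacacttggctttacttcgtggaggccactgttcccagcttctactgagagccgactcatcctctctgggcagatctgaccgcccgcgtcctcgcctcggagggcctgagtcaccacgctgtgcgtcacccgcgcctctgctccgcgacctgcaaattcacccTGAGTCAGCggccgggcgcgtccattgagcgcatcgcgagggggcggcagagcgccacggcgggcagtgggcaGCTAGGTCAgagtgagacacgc
Osgin1, chr8:119436897-119437196 (+): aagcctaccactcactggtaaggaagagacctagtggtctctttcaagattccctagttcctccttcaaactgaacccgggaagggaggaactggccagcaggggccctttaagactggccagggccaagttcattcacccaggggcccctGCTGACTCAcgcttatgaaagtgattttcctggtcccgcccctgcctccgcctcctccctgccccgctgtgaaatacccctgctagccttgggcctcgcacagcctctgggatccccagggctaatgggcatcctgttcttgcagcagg
Nqo1, chr8:107403156-107403455 (-): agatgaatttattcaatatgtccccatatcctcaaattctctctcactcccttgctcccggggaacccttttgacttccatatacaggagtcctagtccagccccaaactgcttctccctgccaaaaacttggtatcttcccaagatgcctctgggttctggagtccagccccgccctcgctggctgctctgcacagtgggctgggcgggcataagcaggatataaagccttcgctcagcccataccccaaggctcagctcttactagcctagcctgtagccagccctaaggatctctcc
The first motif is the antioxidant response element core and was present in 12.4% of 32851 promoters of this length. The second, a form close to the AP-1 and MAF sites, was chosen with these promoters in view and was present in 1.19% of them. The letters of the pair overlap, since TGANTCAGC with C at its N also matches TGACNNNGC. The Srxn1 window held TGAGTCAGC 45 to 37 bases before the start site and, on the opposite strand, TGACCTAGC 28 to 36 bases after it. The Osgin1 window held TGAGTCAGC on the opposite strand, 99 to 91 bases before the start site. Of the 10 genes, 8 had an entry in the promoter table (not Gclc or Hmox1), and 5 of the 8 had TGACNNNGC in at least 1 window: Nfe2l2, Gclm, Srxn1, Txnrd1 and G6pdx. The shares of 12.4% and 1.19% are per window. Counted by window, TGACNNNGC was in 5 of 10 and TGANTCAGC in 2 of 10, those of Srxn1 and Osgin1. A match is a string of letters and not evidence of binding.

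Library totals ran from 11266420 to 24775863 counts. Levels are given as CPM, the count scaled to a common library size after TMM scaling. The label check held in every library: Yap1 averaged 1.37 ± 0.746 CPM in knockout CCl4 libraries (SD, n = 3), 3.50 ± 3.08 in knockout untreated libraries (n = 4), 55.1 ± 8.41 in wild-type CCl4 libraries (n = 5) and 51.3 ± 13.4 in wild-type untreated libraries (n = 5). Wwtr1 averaged 4.76 ± 2.20 CPM in knockout CCl4, 1.87 ± 0.664 in knockout untreated, 19.6 ± 3.24 in wild-type CCl4 and 12.8 ± 3.54 in wild-type untreated libraries. Knockout CCl4 replicate 3 stood apart. It had 34.3% of its counts in mitochondrially encoded genes, against 7.49% and 4.25% in knockout CCl4 replicates 1 and 2, and of the other libraries wild-type untreated replicate 5 was nearest, at 30.7%. The 18 macrophage markers summed to 5215 CPM of the total count in knockout CCl4 replicate 3, against 202 and 554 in replicates 1 and 2, 24.4 to 64.4 in knockout untreated libraries, 62.0 to 178 in wild-type CCl4 libraries and 17.2 to 71.5 in wild-type untreated libraries. Stellate and myofibroblast markers (11 genes) summed to 93.6 to 180 CPM in knockout CCl4, 6.57 to 9.10 in knockout untreated, 19.8 to 83.1 in wild-type CCl4 and 3.90 to 14.6 in wild-type untreated libraries, with Acta2 at 0 in all untreated libraries and Pdgfrb at 0 in the knockout untreated ones. Endothelial markers (12 genes) summed to 137 to 853 CPM in knockout CCl4, 22.0 to 34.0 in knockout untreated, 45.1 to 205 in wild-type CCl4 and 8.70 to 47.5 in wild-type untreated libraries. Hepatocyte markers (10 genes, among them Alb, Ttr and Apoa1) were abundant in all libraries, with sums of 80381 to 184414 CPM, so the labelled cell type was present throughout.

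CCl4 in Yap/Taz knockout hepatocytes moved a subset of the 10 genes. Srxn1, Nqo1, Hmox1 and G6pdx rose, none fell, and Nfe2l2, Gclc, Gclm, Txnrd1, Slc7a11 and Osgin1 did not pass the test. In the same comparison 18 of 18 macrophage, 11 of 12 endothelial and 8 of 9 tested stellate and myofibroblast markers were called higher, with median log2 fold changes of 8.67, 4.05 and 5.99, and their part in the results for the 10 genes was not tested. Tests were edgeR's quasi-likelihood F test with Benjamini-Hochberg adjustment over all 13721 genes, with calls made where the adjusted p was under 0.05. The 4 of 10 calls stand beside a background of 19% of all tested genes called in this comparison, 12.1% of tested genes higher. For 3 genes the knockout CCl4 libraries all lay above the untreated ones, as did 14.4% of all genes, and for 1 they all lay below, as did 10.8%. The median log2 fold change was 0.63 over the 10 genes and 0.01 over all genes tested. The same 4 calls were counted under RLE, upper-quartile and unscaled library totals, though without a scaling factor the split over all genes was 1810 higher and 356 lower, against 1655 higher and 955 lower with TMM. Without knockout CCl4 replicate 3, 3 of the 10 were called, all higher (Srxn1, Nqo1 and Txnrd1), beside 1666 genes called in all against 2610 with it. In this bulk design fewer cells of a type and less RNA per cell cannot be told apart.

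**Figure D1:**
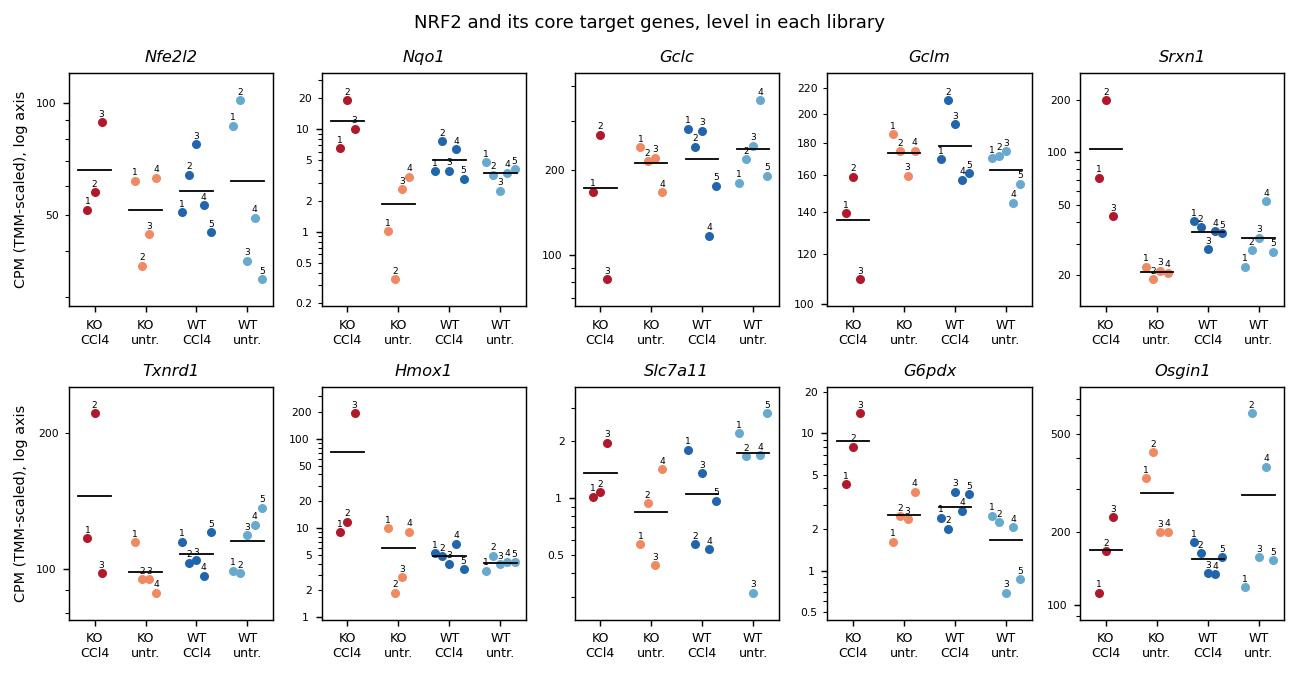
Level of each of the 10 genes (CPM on TMM-scaled library sizes, log axis) in the 17 libraries, by group, with KO for Yap/Taz knockout, WT for wild type and untr. for untreated. Points are libraries numbered by replicate and bars are group means. Srxn1, Nqo1 and G6pdx lie higher in every KO CCl4 library than in any KO untreated library, while the Hmox1 mean of 71.4 CPM in KO CCl4 rests on replicate 3 at 193 CPM.

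Srxn1 encodes sulfiredoxin, which restores over-oxidised peroxiredoxins (chr2:152105516-152111376, mm10, plus strand). It had 71.5, 199 and 43.3 CPM in knockout CCl4 libraries 1 to 3, against 22.2, 18.8, 21.1 and 20.6 CPM in knockout untreated libraries 1 to 4. It had 40.5, 37.4, 28.0, 35.6 and 34.5 CPM in wild-type CCl4 libraries 1 to 5, against 22.3, 27.6, 32.7, 52.5 and 27.2 CPM in wild-type untreated libraries 1 to 5. Knockout CCl4 and knockout untreated libraries did not overlap, and the untreated knockout libraries were tightly grouped. The log2 fold change with CCl4 was 2.34 ± 0.38 (SE) in knockout hepatocytes (edgeR adjusted p = 0.000733) and 0.12 ± 0.31 in wild-type hepatocytes (adjusted p = 0.913). The difference of these changes was 2.22 ± 0.49 (edgeR adjusted p = 0.0441), the single call among the 10 genes for this difference, for which 1.09% of all genes were called and 0.794% called higher. That call was kept without wild-type untreated replicate 1 or 2 or knockout CCl4 replicate 1 or 3 and was lost on leaving out any of the other 13 libraries, with values of 1.35 to 2.28 in those fits and adjusted p up to 0.0908, and also with unscaled library totals (adjusted p = 0.0941), no filter on low counts (adjusted p = 0.0630) or limma voom (adjusted p = 0.127). Replicate 2 carried much of the size: without it the knockout change was 1.47 (adjusted p = 0.00214) and the difference 1.35 (adjusted p = 0.0728), while without the macrophage-rich replicate 3 the knockout change was 2.71 (adjusted p = 0.000232).

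Nqo1 encodes NAD(P)H quinone dehydrogenase, which reduces quinones without forming semiquinone radicals (chr8:107388225-107403206, minus strand). It had 6.52, 19.1 and 10.1 CPM in knockout CCl4 libraries, against 1.01, 0.342, 2.58 and 3.43 CPM in knockout untreated libraries. It had 3.87, 7.63, 3.92, 6.34 and 3.29 CPM in wild-type CCl4 libraries, against 4.74, 3.59, 2.51, 3.76 and 4.05 CPM in wild-type untreated libraries. Knockout CCl4 libraries lay above all knockout untreated libraries, and wild-type CCl4 libraries overlapped wild-type untreated ones. The log2 fold change with CCl4 was 2.69 ± 0.54 in knockout hepatocytes (edgeR adjusted p = 0.00263) and 0.43 ± 0.44 in wild-type hepatocytes (adjusted p = 0.712). The knockout call was kept in all 17 leave-one-out fits, at 2.17 to 3.15, and in all 12 other alternatives. The difference of the changes was 2.27 ± 0.69 and missed the threshold (edgeR adjusted p = 0.10).

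Txnrd1 encodes cytosolic thioredoxin reductase, which keeps thioredoxin reduced with NADPH (chr10:82833951-82897712, plus strand). It had 117, 221 and 97.8 CPM in knockout CCl4 libraries, against 115, 94.9, 95.0 and 88.5 CPM in knockout untreated libraries. The groups overlapped, and 1 library, replicate 2, was far above the rest. Txnrd1 had 96.5 to 121 CPM in wild-type CCl4 libraries, against 97.8 to 137 CPM in wild-type untreated libraries. The log2 fold change in knockout hepatocytes was 0.57 ± 0.22 (edgeR adjusted p = 0.0907). It was 0.12 without knockout CCl4 replicate 2 (adjusted p = 0.714) and 0.78 without replicate 3 (adjusted p = 0.0253), the one leave-one-out fit in which it passed.

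Hmox1 encodes heme oxygenase 1, which breaks heme down to biliverdin, iron and carbon monoxide (chr8:75093621-75100589, plus strand). It had 8.97, 11.8 and 193 CPM in knockout CCl4 libraries, against 9.92, 1.88, 2.80 and 9.13 CPM in knockout untreated libraries. It had 3.48 to 6.68 CPM in wild-type CCl4 libraries, against 3.33 to 4.92 CPM in wild-type untreated libraries. Replicate 3 stood far above all other libraries, and knockout CCl4 replicate 1 lay within the knockout untreated range. The log2 fold change was 3.58 ± 0.81 in knockout hepatocytes (edgeR adjusted p = 0.00564), and without replicate 3 it was 0.80 (adjusted p = 0.319). It was 2.39 by limma voom (adjusted p = 0.0724), 1.39 by voom with quality weights (adjusted p = 0.122) and 3.6 with the 2 groups fitted alone (adjusted p = 0.0866), and DESeq2 gave no adjusted p. Hmox1 is also strongly expressed by macrophages that recycle red cells, and all 18 macrophage markers were called higher in this comparison. The part of the macrophage signal in the Hmox1 result was not tested.

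**Figure D2:**
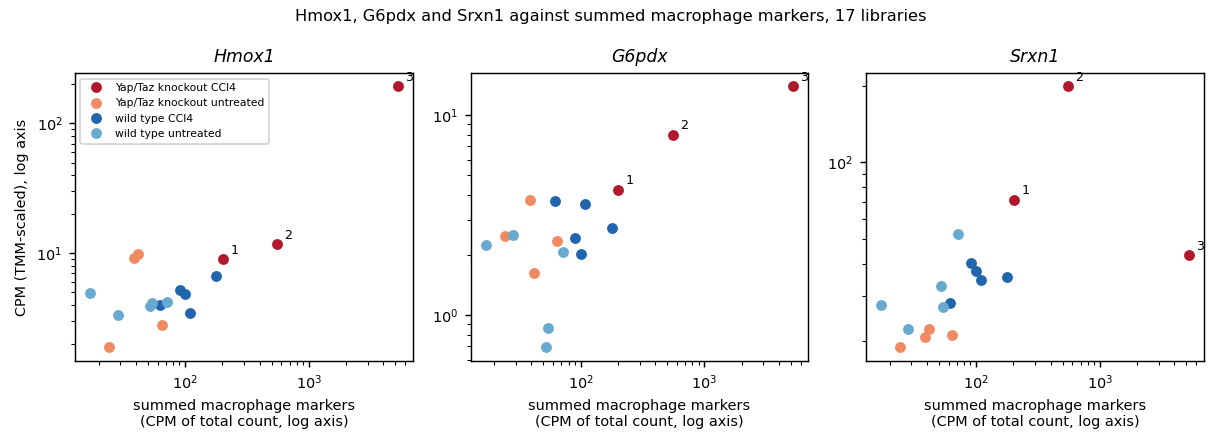
Levels of Hmox1, G6pdx and Srxn1 (CPM on TMM-scaled library sizes, log axis) against the sum of 18 macrophage markers (CPM of the total count, log axis) in the 17 libraries, coloured by group, with the Yap/Taz knockout CCl4 libraries numbered. Replicate 3, at 5215 CPM of macrophage markers, has the highest Hmox1 and G6pdx, and replicate 2, at 554 CPM, has the highest Srxn1.

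G6pdx encodes glucose-6-phosphate dehydrogenase, which feeds NADPH from the pentose phosphate path (chrX:74409483-74429194, minus strand). It had 4.25, 7.97 and 13.9 CPM in knockout CCl4 libraries, against 1.62, 2.48, 2.36 and 3.77 CPM in knockout untreated libraries. It had 2.43, 2.02, 3.75, 2.73 and 3.6 CPM in wild-type CCl4 libraries, against 2.52, 2.25, 0.691, 2.06 and 0.867 CPM in wild-type untreated libraries. Knockout CCl4 libraries did not overlap knockout untreated ones. The order of the 3 libraries was that of their macrophage sums, as it was for Hmox1, Nfe2l2, Slc7a11 and Osgin1. Of the wild-type CCl4 libraries, replicate 3 had the lowest macrophage sum, 62.0 CPM, and the highest G6pdx. A link between G6pdx and the macrophage signal was not tested. The log2 fold change was 1.77 ± 0.46 in knockout hepatocytes (edgeR adjusted p = 0.0129) and 0.81 ± 0.40 in wild-type hepatocytes (adjusted p = 0.361). Without knockout CCl4 replicate 3 the knockout change was 1.27 and no longer passed (adjusted p = 0.0981).

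The pair of subunits of glutamate-cysteine ligase, the rate-limiting enzyme of glutathione synthesis, gave no call for CCl4 in the knockout by edgeR, DESeq2 or limma voom. Gclm, the modifier subunit (chr3:122245557-122270732, plus strand), had 139, 159 and 109 CPM in knockout CCl4 libraries, against 186, 175, 160 and 175 CPM in knockout untreated libraries. All 3 values were below the knockout untreated range, the nearest pair by a small margin, and the log2 fold change of -0.36 ± 0.15 missed the threshold (edgeR adjusted p = 0.124). Gclc, the catalytic subunit (chr9:77754535-77794485, plus strand), had 168, 267 and 81.8 CPM in knockout CCl4 libraries, against 167 to 242 CPM in knockout untreated libraries. Its log2 fold change was -0.30 ± 0.35 (adjusted p = 0.646), and 0.04 without replicate 3. The ratio of Gclc to Gclm CPM was 1.21, 1.68 and 0.748 in knockout CCl4 libraries, against 0.955 to 1.39 in knockout untreated libraries, and 0.744 to 1.66 in wild-type CCl4 libraries, against 1.06 to 2.46 in wild-type untreated libraries. These ratios overlapped between all groups.

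Nfe2l2 itself (chr2:75675513-75704641, minus strand) had 51.7, 57.6 and 89.0 CPM in knockout CCl4 libraries, against 61.9, 36.5, 44.4 and 63.0 CPM in knockout untreated libraries. It had 50.8, 64.1, 77.5, 53.1 and 44.9 CPM in wild-type CCl4 libraries, against 87.1, 102, 37.6, 49.2 and 33.5 CPM in wild-type untreated libraries. The 4 groups overlapped, and the wild-type untreated libraries alone spanned the whole range. The log2 fold change with CCl4 was 0.36 ± 0.35 in knockout hepatocytes (edgeR adjusted p = 0.555) and -0.09 ± 0.29 in wild-type hepatocytes (adjusted p = 0.930). Slc7a11, the cystine carrier of system xc- (chr3:49892526-50443614, minus strand), was near the detection limit, with 5 to 39 counts in any library, and its log2 fold change was 0.69 ± 0.63 in knockout hepatocytes (adjusted p = 0.525) and -0.73 ± 0.52 in wild-type hepatocytes (adjusted p = 0.563). Osgin1, an oxidative stress-induced growth inhibitor (chr8:119434124-119446256, plus strand), had 112, 166 and 228 CPM in knockout CCl4 libraries, against 198 to 422 CPM in knockout untreated libraries, with a log2 fold change of -0.77 ± 0.47 (adjusted p = 0.301). Osgin1 carries the same TGAGTCAGC string as Srxn1 in the window printed above, and its fitted change, which was not called, had the opposite sign. The Osgin1 window, from 119436897, lies inside its gene, past the 5′ end at 119434124. That of Srxn1 spans the 5′ end of its gene.

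**Figure D3:**
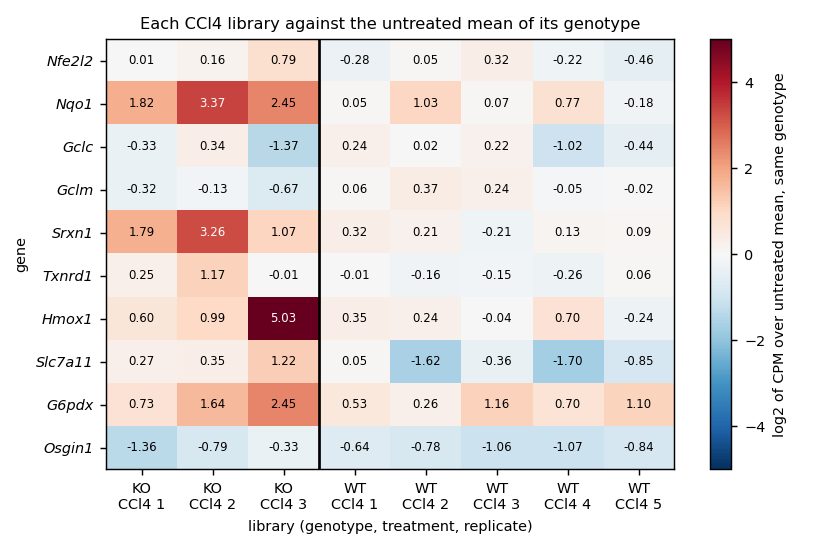
Log2 ratio of each CCl4 library's CPM to the mean CPM of the untreated libraries of its genotype (KO for Yap/Taz knockout, n = 4, and WT for wild type, n = 5), for the 10 genes. Nqo1, Srxn1 and G6pdx are above 0 in all 3 KO libraries, as are Hmox1, Nfe2l2 and Slc7a11, the KO 3 library reaches 5.03 for Hmox1, and Osgin1 is below 0 in all 8 CCl4 libraries. For Osgin1 the WT untreated mean of 281 CPM is raised by replicates 2 and 4, and the WT median is 157 CPM both with CCl4 and untreated.

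The 3 knockout CCl4 libraries therefore had unlike profiles. Replicate 2 was the highest of all 17 libraries for Nqo1, Srxn1 and Txnrd1, and replicate 3 was the highest for Hmox1 and G6pdx and the lowest for Gclc and Gclm. Replicate 1 was the lowest of the 17 for Osgin1 and the highest for none of the 10 genes. Among untreated knockout libraries, replicate 2 was the lowest of the 17 for Nqo1, Srxn1 and Hmox1.

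CCl4 in wild-type hepatocytes gave no call among the 10 genes by the edgeR test, and 1 gene, Osgin1, had an unadjusted p under 0.05. Limma voom called 0 of the 10, and DESeq2 0 of the 9 for which it gave an adjusted p, Hmox1 being the one without. Osgin1 had 134 to 181 CPM in wild-type CCl4 libraries, against 119, 608, 157, 368 and 152 CPM in wild-type untreated libraries. Untreated replicates 2 and 4 were high, the groups overlapped, and the log2 fold change was -0.87 ± 0.39 (edgeR adjusted p = 0.305). The median log2 fold change was 0.01 over the 10 genes and -0.01 over all genes tested. No gene of the 10 had groups that did not overlap, beside 4.84% of all genes. Over all genes 0.853% were called and 2023 had an unadjusted p under 0.05, so few genes of any kind passed in this comparison. Unscaled library totals moved the median of all genes in this comparison to 0.38 and the calls over all genes to 617 higher and 34 lower, against 79 higher and 38 lower with TMM.

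**Figure D4:**
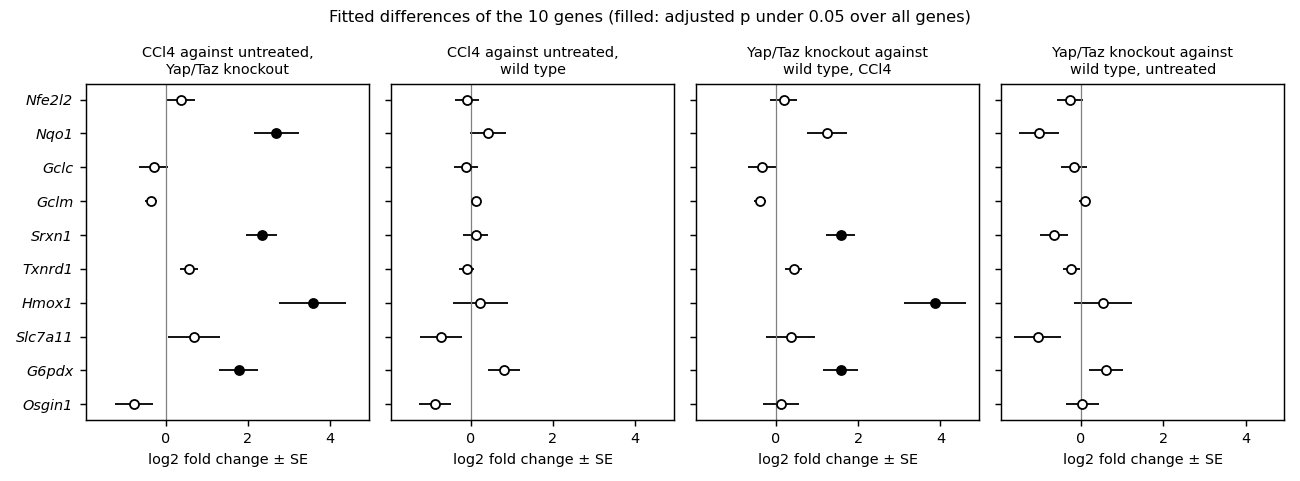
Fitted log2 fold change ± SE of the 10 genes in 4 comparisons from edgeR, with filled points for adjusted p under 0.05 over 13721 genes. Srxn1, Nqo1, Hmox1 and G6pdx are filled for CCl4 against untreated in the knockout, none is filled in wild type, and Srxn1, Hmox1 and G6pdx are filled for knockout against wild type under CCl4.

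Between genotypes under CCl4, knockout hepatocytes had more Hmox1, Srxn1 and G6pdx than wild-type hepatocytes. The log2 fold changes were 3.88 ± 0.75 for Hmox1 (edgeR adjusted p = 0.00401), 1.57 ± 0.35 for Srxn1 (adjusted p = 0.00874) and 1.58 ± 0.43 for G6pdx (adjusted p = 0.0265). All 3 knockout libraries lay above all 5 wild-type libraries for each of these genes. The 3 of 10 calls, all higher, stand beside 11.8% of all genes called, 7.62% higher and 4.21% lower, and the 3 of 10 ranges above beside 10.1% of all genes. Nqo1 had a log2 fold change of 1.25 ± 0.49 (edgeR adjusted p = 0.109) and Gclm one of -0.39 ± 0.15 (edgeR adjusted p = 0.0950). Each passed with 1 other tool, Nqo1 with limma voom at 1.29 (adjusted p = 0.0340) and Gclm with DESeq2, lower in knockout at -0.37 (adjusted p = 0.0487). Without knockout CCl4 replicate 3, Hmox1 was at 1.10 (adjusted p = 0.216) and G6pdx at 1.07 (adjusted p = 0.226). Without replicate 2, Srxn1 was at 0.70 (adjusted p = 0.107), with the 2 groups fitted alone it was at 1.55 (adjusted p = 0.0513), and G6pdx also lost its call without wild-type CCl4 replicate 1 (adjusted p = 0.0555), 2 (adjusted p = 0.0651) or 4 (adjusted p = 0.0519). All 18 macrophage, 4 of 12 endothelial and 0 of 9 stellate and myofibroblast markers were called higher in knockout here by edgeR, and their part in these results was not tested.

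Between untreated genotypes none of the 10 genes was called by edgeR, none had an unadjusted p under 0.05, and limma voom and DESeq2 called 0 (DESeq2 again with no adjusted p for Hmox1), with 0.933% of all genes called. Srxn1 had 18.8 to 22.2 CPM in knockout untreated libraries, all below the 22.3 to 52.5 CPM of wild-type untreated libraries, by a margin at the nearest pair that is smaller than the spread within either group. Its log2 fold change was -0.65 ± 0.34 (edgeR adjusted p = 0.633), while 1.89% of all genes had such ranges below. Nqo1 had a log2 fold change of -1.02 ± 0.49 (adjusted p = 0.583) and Slc7a11 one of -1.06 ± 0.57 (adjusted p = 0.660). The median was -0.20 over the 10 genes and -0.01 over all genes tested.

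Levels between genes were compared as CPM per kilobase of exon. In wild-type untreated hepatocytes Osgin1 averaged 105 ± 77.8 and Gclc 63.2 ± 18.6, followed by Gclm at 26.0 ± 2.05, Txnrd1 at 16.3 ± 2.38, Nfe2l2 at 16.3 ± 8.12 and Srxn1 at 11.5 ± 4.19 (SD, n = 5). Nqo1 at 2.4 ± 0.521, Hmox1 at 2.34 ± 0.326, G6pdx at 0.545 ± 0.273 and Slc7a11 at 0.125 ± 0.0665 CPM per kilobase came last. Osgin1 and Gclc overlapped, as did Txnrd1 with Nfe2l2, Nfe2l2 with Srxn1, and Nqo1 with Hmox1, while the other neighbours did not overlap. Osgin1 and Gclc filled the first and second places in all 4 groups and Slc7a11 the last. In knockout CCl4 hepatocytes Srxn1 averaged 37.1 ± 29.3 CPM per kilobase (n = 3), above Gclm at 21.6 ± 3.99, but the libraries of the pair overlapped.

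The wider pathway was read from 5 lists with 52 genes, of which 51 were tested. With CCl4 in knockout hepatocytes 4 rose, 5 fell and the median log2 fold change was -0.11, beside 12.1% of all genes higher and 6.96% lower. The counts moved to 3 higher and 1 lower with the 2 groups fitted alone, 5 higher and 2 lower with unscaled library totals, and 5 higher and 9 lower, 4 higher and 3 lower, or 3 higher and 4 lower without knockout CCl4 replicate 1, 2 or 3. In the thioredoxin list 0 of 7 rose and 4 fell: Txnrd3 by -1.43 ± 0.24 on the log2 scale (edgeR adjusted p = 0.000873), Txn2 by -0.85 ± 0.21, Prdx6 by -0.83 ± 0.21 and Txnrd2 by -0.84 ± 0.22. Txn2 and Txnrd2 are the mitochondrial thioredoxin and its reductase, Txnrd3 is a thioredoxin glutathione reductase best known from testis, and Prdx6 is a peroxiredoxin that also handles phospholipid peroxides. Txn2 lost its call without knockout CCl4 replicate 2 (adjusted p = 0.0539) and Prdx6 without replicate 3 (adjusted p = 0.0600). Of the 4 falls, only that of Txnrd3 passed with the 2 groups fitted alone, where Txn2 had an adjusted p of 0.0803, Prdx6 one of 0.0636 and Txnrd2 one of 0.102. With unscaled library totals Prdx6 was at -0.63 (adjusted p = 0.131) and Txnrd2 at -0.61 (adjusted p = 0.110). Txn1, the cytosolic thioredoxin that Txnrd1 serves, had a log2 fold change of -0.26 ± 0.22 (adjusted p = 0.469). With CCl4 in wild type edgeR called 0 of the 7, beside 0.853% of all genes. Mean CPM there was 4.95 with CCl4 against 7.72 untreated for Txnrd3 and 107 against 146 for Txn2. It was 318 against 378 for Prdx6 and 27.6 against 25.6 for Txnrd2. In the knockout Txnrd2 averaged 20.3 CPM with CCl4 and 36.3 CPM untreated.

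In the NADPH list 1 of 8 genes rose and none fell, near the shares of all genes, 12.1% higher and 6.96% lower. Pgd, the pentose phosphate dehydrogenase one step after G6pdx, had 55.1, 93.7 and 75.9 CPM in knockout CCl4 libraries, against 21.5, 26.6, 35.7 and 34.8 CPM in knockout untreated libraries. The groups did not overlap, and the log2 fold change was 1.34 ± 0.22 in knockout hepatocytes (edgeR adjusted p = 0.000787) and 0.24 ± 0.18 in wild-type hepatocytes (adjusted p = 0.595). Pgd was also higher in knockout than in wild-type hepatocytes under CCl4, by 0.98 ± 0.21 (adjusted p = 0.00679). Malic enzyme Me1 had a log2 fold change of -0.85 ± 0.39 in knockout hepatocytes (adjusted p = 0.157), Idh1 one of -0.29 ± 0.23 (adjusted p = 0.458) and H6pd one of -0.36 ± 0.22 (adjusted p = 0.306).

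**Figure D5:**
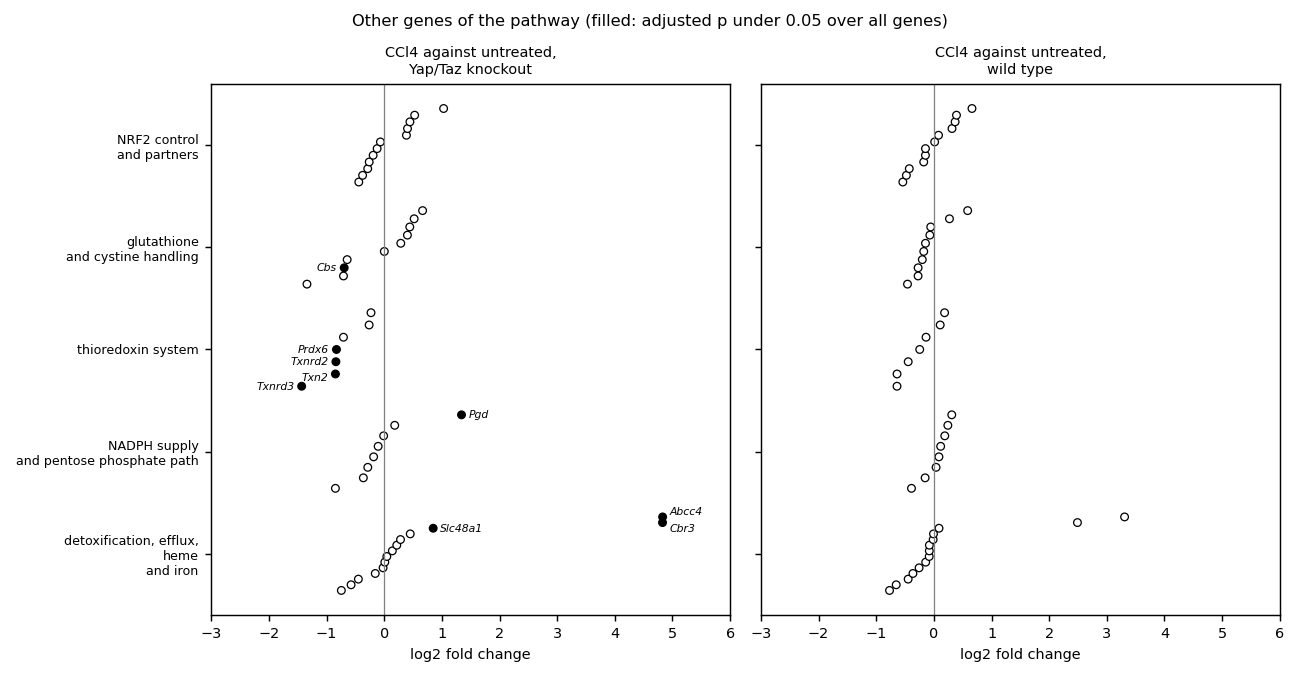
Log2 fold changes (edgeR) of 51 other genes of the pathway in 5 lists, for CCl4 against untreated in Yap/Taz knockout and in wild type hepatocytes, with filled points for adjusted p under 0.05 over all genes. In the knockout 4 genes are filled to the right of 0 and 5 to the left, 4 of these 5 in the thioredoxin list, and no gene is filled in wild type.

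In the detoxification, efflux, heme and iron list 3 of 14 rose and none fell, beside 12.1% of all genes higher and 6.96% lower. Cbr3, a carbonyl reductase, had 0.598, 1.32 and 2.36 CPM in knockout CCl4 libraries, with 77 counts in all, against 3 counts over the 4 knockout untreated libraries. That is a ratio of 28.9 with an exact 95% counting interval of 9.51 to 143, and edgeR called it (adjusted p = 0.00178). In wild type Cbr3 had 37 counts with CCl4, against 4 untreated, a ratio of 5.68 (2.04 to 21.9), and edgeR did not call it. Abcc4, an efflux pump of the sinusoidal membrane, had 0.837, 3.15 and 5.91 CPM in knockout CCl4 libraries, with 177 counts, against 7 counts in knockout untreated libraries, a ratio of 28.4 (13.5 to 71.8, adjusted p = 0.00268). In wild type Abcc4 had 134 counts with CCl4, against 8 untreated, a ratio of 10.3 (5.07 to 24.3), and its edgeR adjusted p was 0.0812. These intervals cover counting error only. Slc48a1, a heme carrier also used by macrophages, changed by 0.85 ± 0.20 (adjusted p = 0.00680), and by 0.55 without knockout CCl4 replicate 3 (adjusted p = 0.0614) and 0.87 with the 2 groups fitted alone (adjusted p = 0.0775). Aox1 had a log2 fold change of -0.58 ± 0.22 (adjusted p = 0.0876).

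Genes that control NRF2 or pair with it gave no call in 12 with CCl4 in knockout hepatocytes by edgeR, beside 19% of all genes. Keap1 had 49.6, 64.2 and 55.5 CPM in knockout CCl4 libraries, against 46.0, 44.8, 40.7 and 41.5 CPM in knockout untreated libraries. The ranges did not overlap, and the log2 fold change was 0.38 ± 0.14 (edgeR adjusted p = 0.0710). Under CCl4 Keap1 was higher in knockout than in wild-type hepatocytes by 0.44 ± 0.13 (adjusted p = 0.0441), a call lost on leaving out any of 12 of the 17 libraries, with adjusted p up to 0.182, and with unscaled library totals (adjusted p = 0.229), no filter on low counts (adjusted p = 0.112) or limma voom (adjusted p = 0.0503). Bach1, the heme-sensing repressor of Hmox1, had a log2 fold change of -0.44 ± 0.29 in knockout hepatocytes (adjusted p = 0.339) and -0.54 ± 0.24 in wild-type hepatocytes (adjusted p = 0.299). The partner Mafk was at 0.53 ± 0.28 (adjusted p = 0.219), and the kinase Gsk3b at 0.40 ± 0.23 (adjusted p = 0.263) and the ligase subunit Btrc at -0.38 ± 0.18 (adjusted p = 0.171), which serve a KEAP1-independent route of NRF2 turnover.

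In the glutathione and cystine list none of 10 tested genes rose and 1 fell, beside 12.1% of all genes higher and 6.96% lower. Cbs, which starts transsulfuration of homocysteine toward cysteine, had 644, 446 and 416 CPM in knockout CCl4 libraries, against 857, 724, 857 and 813 CPM in knockout untreated libraries, a log2 fold change of -0.70 ± 0.20 (edgeR adjusted p = 0.0212). Cbs averaged 522 CPM in wild-type CCl4 and 589 CPM in wild-type untreated libraries. Its knockout means were 502 CPM with CCl4 and 813 CPM untreated. The knockout groups did not overlap. The call was lost without knockout CCl4 replicate 2 (adjusted p = 0.0890) or 3 (adjusted p = 0.101). It was also lost with unscaled library totals (adjusted p = 0.247) and with the 2 knockout groups fitted alone (adjusted p = 0.0974). Cth, the next enzyme, was at -0.71 ± 0.30 in that comparison (adjusted p = 0.120) and was lower in knockout than in wild-type hepatocytes under CCl4, at -1.15 ± 0.30 (adjusted p = 0.0185), a call lost without knockout CCl4 replicate 2 (adjusted p = 0.0792) or 3 (adjusted p = 0.0968). Glutathione synthetase Gss was at 0.44 ± 0.19 (adjusted p = 0.134), Oplah at -0.64 ± 0.24 (adjusted p = 0.0678) and Slc3a2, the partner chain of Slc7a11, at 0.66 ± 0.32 (adjusted p = 0.171). In wild type with CCl4 and between untreated genotypes 0 of the 51 genes were called by edgeR, beside 0.853% and 0.933% of all genes. DESeq2 and voom with quality weights each called 1 higher and 1 lower in wild type. Between untreated genotypes each called 0 higher and 1 lower. Unscaled library totals gave 2 higher and 0 lower in wild type.

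Genes whose pattern over the 17 libraries was nearest to that of Nfe2l2 or Nqo1 were ranked by the root mean square difference of z-scored log2(CPM + 0.1). For Nfe2l2 they were Dusp6 at 0.557, Slc20a1 at 0.569, Gm17146 at 0.575, Zfp69 at 0.583 and Mindy2 at 0.587, beside a median of 1.41 over all tested genes. Gm17146, with 0 to 77 counts and 0 in 4 libraries, and Zfp69, with 1 to 18 counts, were near the floor of detection. The 9 targets lay at 0.998 (G6pdx) to 1.59 (Txnrd1) from Nfe2l2. For Nqo1 they were Serpina3m at 0.424, Lect2 at 0.439, Gstm2 at 0.529, Cyp2b10 at 0.538 and C030037D09Rik at 0.545, beside a median of 1.42, and the nearest of the other 9 genes was Srxn1 at 0.755. Gstm2, a glutathione transferase, had 60.9, 134 and 112 CPM in knockout CCl4 libraries, against 11.5, 1.97, 23.0 and 17.6 CPM in knockout untreated libraries. These distances are descriptions over libraries that share group and depth.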

How the data were processed

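RNA was sequenced from FACS-sorted hepatocytes in 17 libraries of 4 groups. The authors deposited 1 table of read counts per gene, with whole numbers and no normalization. The submitters' processing notes name STAR 2.4.1d, the build mm10, FastQC, DESeq2, edgeR and limma. For the counting tool, strand setting and annotation, the sources used here give no name. The sample descriptions in the labels say that replicate numbers do not pair samples, so no pairing was used. Replicate columns differed beyond sampling noise, with a lowest chi-square per gene of 23.4 over genes with at least 20 counts.

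Genes were kept by filterByExpr (minimum count 10, minimum total 15) and fitted over all 17 libraries with 1 mean per group in edgeR 4.0.16 (R 4.3.3, TMM scaling, robust quasi-likelihood F test, Benjamini-Hochberg adjustment, call at 0.05). The SE is the absolute log2 fold change divided by the root of F. Identifiers were matched to 22914 symbols, and positions and exon lengths came from GENCODE M21. The test was checked on simulated data, in which 100 genes were given a 2-fold and 100 a 4-fold change. It recovered 15% and 53% of them for CCl4 in the knockout and 39% and 64% for CCl4 in wild type. Recovery was 28% and 66% between untreated genotypes, 31% and 65% between genotypes under CCl4, and 3% and 40% for the difference. A gene without a call may therefore still have changed. The simulation changed few of the genes, while 19% of tested genes were called for CCl4 in the knockout, so recovery in the data may differ. The members and gene lists were chosen with earlier results of these data known. Named genes were the 10 members, Yap1, Wwtr1, up to 4 genes per list with the smallest p in knockout CCl4 against untreated plus Keap1, Bach1, Slc3a2, Txn1 and Pgd, and the 5 genes nearest to Nfe2l2 and to Nqo1. Alternatives were other scalings and filters, DESeq2 1.42.0, limma 3.58.1 (voom, with and without quality weights), the compared groups alone, a replicate block, 2 libraries over 30% mitochondrial left out, mitochondrial genes left out, and each library left out in turn. Depth limits genes with few counts, such as Nqo1 and Slc7a11, and intervals on low counts cover counting error only.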

Additional observations from a re-analysis of the deposited data

Results flagged for a closer look

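The change of Srxn1 with CCl4 differed between genotypes: it was 2.34 ± 0.38 on the log2 scale in Yap/Taz knockout hepatocytes and 0.12 ± 0.31 in wild-type hepatocytes, and the difference of 2.22 ± 0.49 passed the interaction test (edgeR adjusted p = 0.0441). All 3 knockout CCl4 libraries lay above all 4 knockout untreated libraries, while the 5 wild-type CCl4 libraries overlapped the 5 wild-type untreated ones. The difference was 1.35 without knockout CCl4 replicate 2 (adjusted p = 0.0728). Leaving out 1 library at a time lost this call in 13 of 17 fits, and 6 of 11 other alternatives kept it. Among the 10 genes, 30 groups of 4 or 5 libraries were searched for a library far from the others, and none was found. Knockout CCl4, with 3 libraries, was too small for this search and was left out of it. There Srxn1 had 71.5, 199 and 43.3 CPM, and Hmox1 had 8.97, 11.8 and 193 CPM.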

How the results depend on the processing

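For CCl4 in knockout hepatocytes 1273 genes were called with the compared groups alone, against 2610 with all groups. For CCl4 in wild type the count was 651 with unscaled library totals, 494 by DESeq2, 435 by limma voom with quality weights, 49 with a replicate block and 187 without the 2 libraries over 30% mitochondrial, against 117. Between untreated genotypes it was 328 by DESeq2 and 214 with quality weights, against 128. Between genotypes under CCl4 it was 1031 with quality weights, 867 with the block and 555 without the mitochondrial-rich libraries, against 1622. For the difference of the CCl4 effect it was 28 with unscaled totals, 33 with no filter, 88 with a CPM filter, 783 by DESeq2, 9 by voom, 2 with quality weights, 3 with the block and 9 without the mitochondrial-rich libraries, against 150. Of the 10 genes, the calls between genotypes under CCl4 were 1 with quality weights, with the block or without those libraries, against 3, and those for the difference were 0 with unscaled totals, no filter, voom, quality weights or the block and 2 by DESeq2, against 1. The cause of these shifts was not tested.

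Leaving out each library in turn gave 1666 to 3079 genes for CCl4 in the knockout, 63 to 179 for CCl4 in wild type, 89 to 152 between untreated genotypes, 418 to 2216 between genotypes under CCl4 and 0 to 867 for the difference. Among the 10 genes the calls ran from 3 to 4 for CCl4 in the knockout, from 1 to 3 between genotypes under CCl4 and from 0 to 3 for the difference, and were 0 throughout for CCl4 in wild type and between untreated genotypes. The lowest counts for the knockout and for the genotypes under CCl4 came without knockout CCl4 replicate 3, and the highest for the difference without knockout CCl4 replicate 1.

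Values that changed sign were all uncalled. For CCl4 in the knockout Gclc was at 0.0435 without the mitochondrial-rich libraries. For CCl4 in wild type unscaled totals, which moved the median of all genes to 0.38, put Nfe2l2 at 0.30, Gclc at 0.23 and Txnrd1 at 0.30, and voom put Nfe2l2 at 0.0295. Between untreated genotypes Osgin1 was at -0.12 without the mitochondrial-rich libraries. Between genotypes under CCl4 those libraries' removal put Nfe2l2 at -0.0857 and Osgin1 at -0.15, and quality weights put Osgin1 at -0.18. For the difference, Gclc was at 0.23 without those libraries, and Osgin1 at -0.12 with unscaled totals, -0.17 by voom, -0.22 with quality weights, -0.0346 with the block and -0.0223 without those libraries. With 1 library left out, the values ran as follows. For CCl4 in the knockout Gclc ran from -0.763 to 0.0424. For CCl4 in wild type Nfe2l2 ran from -0.247 to 0.166 and Gclc from -0.228 to 0.0808. Between untreated genotypes Gclc ran from -0.255 to 0.0288 and Osgin1 from -0.210 to 0.531. Between genotypes under CCl4 Nfe2l2 ran from -0.0861 to 0.325, Txnrd1 from -0.0125 to 0.649, Slc7a11 from -0.0001 to 0.634 and Osgin1 from -0.146 to 0.346. For the difference Gclc ran from -0.642 to 0.164 and Osgin1 from -0.399 to 0.341.

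The replicate numbers do not pair the samples: over 22 pairs with the same number, deviations from the group means correlated at -0.257 to 0.199, with 4 pairs over 0.1. With the number as a block, Hmox1 was at 3.19 in the knockout (adjusted p = 0.0548) and at 3.38 between genotypes under CCl4 (adjusted p = 0.0546), G6pdx was at 1.56 between genotypes under CCl4 (adjusted p = 0.0908), and Srxn1 was at 2.11 for the difference (adjusted p = 0.128).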
